A study of Mus musculus with 2 samples.

Results

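Elastic fibre genes were followed in single cells of mouse carotid artery after wire injury. The set held 10 genes chosen by symbol from the 27998 rows of the count tables: Eln, Fbn1, Fbln1, Fbln2, Fbln5, Mfap4, Mfap5, Emilin1, Ltbp4 and Loxl1. All 10 were detected in both libraries. Ltbp4 had 2 rows, of which 1 held no UMI (unique molecular identifier, 1 counted RNA molecule) and was not used.

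Both libraries came from male C57BL/6J mice, 8 weeks old by the series' design, in which a guide wire had been drawn through the carotid artery to strip its endothelium and provoke intimal hyperplasia, a thickening of the inner wall. One library was taken at 2 weeks (14 days) and 1 at 4 weeks (28 days) after injury, with 18 mice given per time and no label that ties cells to animals. No uninjured vessel was analysed here, and the labels disagree on the tissue, naming the carotid artery as the source but aortic grafts in the extraction protocol, and both the left and the right side in the surgery. With 1 library per time there was no test between times, and every interval below covers counting error only.

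Elastic fibres let an artery recoil after each pulse. They consist of a core of crosslinked elastin laid down on a scaffold of microfibrils built of fibrillin, with fibulins and other accessory proteins that guide the deposition of elastin onto the scaffold and lysyl oxidases that crosslink it. In the arterial media smooth muscle cells make most of the elastin, largely before adulthood, while adventitial fibroblasts are a known source of microfibril proteins.

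RefSeq upstream windows were at hand for 6 of the 10 genes. The 3 shown belong to genes whose level in fibroblast-like cells was higher at 4 weeks than at 2 weeks, Fbln1, Fbln5 and Ltbp4, and are those of their windows that overlap no annotated exon. Each is the 250 bases before an annotated start, 5′ to 3′ on the gene's strand, in build GRCm38.p6. Capitals mark matches on either strand to GGGCGG (the GC box), CCAAT (the CCAAT box) and CAGACA (a SMAD-type element). A TATA box, an E-box and an MCAT element were searched in the same way.
Fbln1, chr15:85205699-85205948, plus strand: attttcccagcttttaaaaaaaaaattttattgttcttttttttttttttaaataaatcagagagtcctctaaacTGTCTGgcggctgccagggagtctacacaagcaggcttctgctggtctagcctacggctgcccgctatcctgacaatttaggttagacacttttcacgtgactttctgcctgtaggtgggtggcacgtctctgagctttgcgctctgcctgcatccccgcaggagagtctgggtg
Fbln5, chr12:101819120-101819369, minus strand: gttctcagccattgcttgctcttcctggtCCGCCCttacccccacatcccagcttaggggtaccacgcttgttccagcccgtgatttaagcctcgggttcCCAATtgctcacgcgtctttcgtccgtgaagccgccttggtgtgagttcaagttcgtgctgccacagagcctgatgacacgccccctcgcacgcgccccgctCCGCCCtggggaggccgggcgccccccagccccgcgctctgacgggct
Ltbp4, chr7:27333664-27333913, minus strand: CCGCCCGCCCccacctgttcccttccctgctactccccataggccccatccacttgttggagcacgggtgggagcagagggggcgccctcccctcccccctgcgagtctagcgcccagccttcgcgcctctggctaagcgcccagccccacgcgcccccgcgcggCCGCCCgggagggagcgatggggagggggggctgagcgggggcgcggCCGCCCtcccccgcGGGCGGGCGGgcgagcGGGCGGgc
The Ltbp4 window, which lies before an internal start of the gene, was 79.2% G and C, with overlapping GC boxes at its 5′ end and near its start site. The Fbln5 window (65.2% G and C) held 2 GC boxes and 1 CCAAT box, and the Fbln1 window (46.4%) held 1 CAGACA match and no GC box. Over 32851 RefSeq windows of this length the median was 52.4% G and C, 32.7% held a GC box, 33.8% a CCAAT box and 17.1% a CAGACA match. The other 3 motifs, spelled TATAAA for the TATA box, CAGCTG for the E-box and CATTCC for the MCAT element, were in 12.4%, 13.0% and 12.6% of all windows. These matches describe the letters of the windows.

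After filtering, 5152 cells remained at 2 weeks and 7422 at 4 weeks, with medians of 11775.5 and 8710 UMIs per cell. They formed 29 clusters, of which 25 were named from marker genes and 4 were not. Fibroblast-like cells numbered 1008 and 2902, and smooth muscle cell-like ones 223 and 75. Thymocyte-like cells made up 32.0% and 11.2% of the cells and parathyroid cell-like cells 1.05% and 0.202%, so both libraries held cells of other tissues, and fibroblasts of the artery could not be told apart from those of its surroundings. The 2 libraries shared 8 barcodes, 6 of them among kept cells.

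Fibroblast-like cells held most of the elastic fibre UMIs. They carried 79.9% (95% exact binomial interval 79.7% to 80.1%) of 220412 UMIs of the 10 genes at 2 weeks and 91.3% (91.2% to 91.4%) of 279040 at 4 weeks, while being 19.6% and 39.1% of the cells. Smooth muscle cell-like cells carried 8.26% and 1.51%, and an unnamed cluster, number 19, carried 8.44% and 3.98% from 2.23% and 1.19% of the cells. These shares depend on the number of cells recovered per type as well as on the level in each cell.

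**Figure D1:**
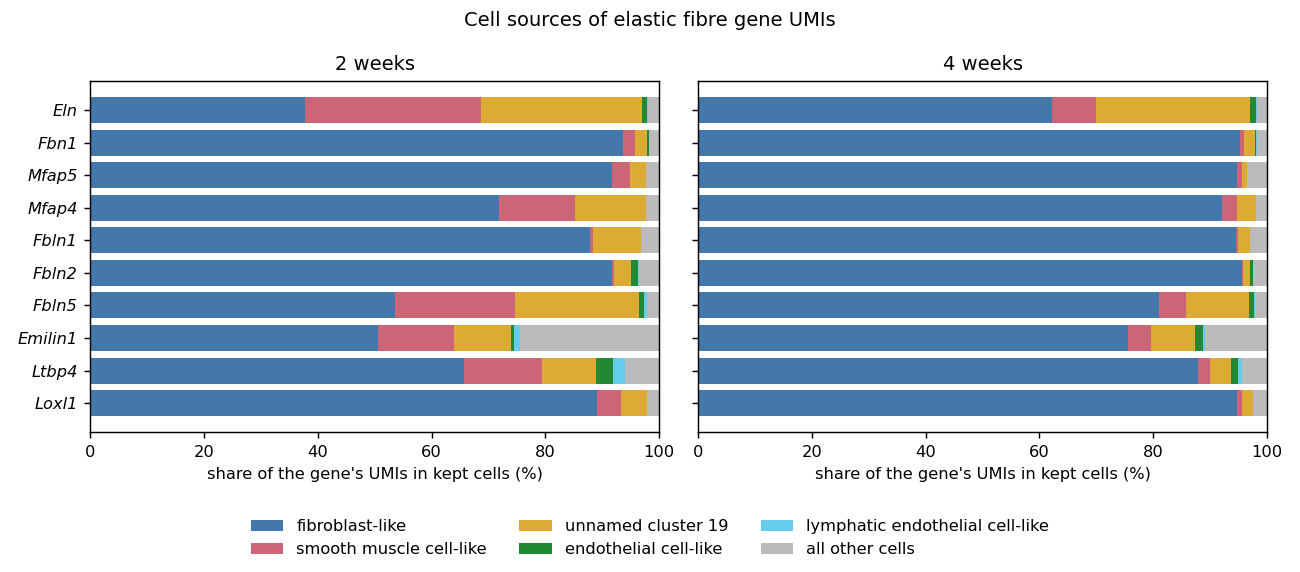
Share of each gene's UMIs (horizontal axis, percent of all its UMIs in kept cells) that lay in each group of cells, at 2 and 4 weeks, 1 library each. For Eln the fibroblast-like segment covers 37.7% and 62.1%, while for Fbn1 it covers 93.7% and 95.3%.

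Cluster 19 needs a description of its own, since Eln, the elastin gene, was highest there. It held 115 cells at 2 weeks and 88 at 4 weeks and was led by Mgp, Rbp4 and Ltbp2. It met 75% of the fibroblast, 67% of the pericyte and 50% of the chondrocyte markers, so it was given no name. Smooth muscle markers summed to 1895 and 2342 CPM in it (UMIs of a gene per 1000000 UMIs of the group of cells). The sums were 28785 and 27843 in smooth muscle cell-like cells and 235 and 52.0 in fibroblast-like cells, and all 8 of these markers were detected in each. Fibroblast markers summed to 27232 and 25064 CPM in cluster 19, 44426 and 43698 in fibroblast-like cells and 3747 and 3002 in smooth muscle cell-like cells. In the same order, pericyte markers summed to 675 and 701, 199 and 221, and 1381 and 1726 CPM. Chondrocyte markers summed to 802 and 905, 61.2 and 92.2, and 94.6 and 126 CPM.

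Elastin itself had several cell sources. At 2 weeks 37.7% of the Eln UMIs lay in fibroblast-like cells, 31.0% in smooth muscle cell-like cells and 28.4% in cluster 19, and at 4 weeks the shares were 62.1%, 7.79% and 27.2%. The Eln level was 4447 CPM at 2 weeks and 4704 CPM at 4 weeks in cluster 19, 2706 and 1685 CPM in smooth muscle cell-like cells, and 456 and 319.9 CPM in fibroblast-like cells. The 3 groups did not overlap in their intervals at either time. Endothelial cell-like cells, which numbered only 41 and 26, stood at 448 (95% Poisson interval 391 to 511) and 754 (652 to 868) CPM, and 1 cell held 44.3% of their Eln UMIs at 4 weeks. Lymphoid cells, which are not a known source of elastin, were taken as the background of free RNA. They stood at 17.6 and 8.59 CPM (T, B and NK cell-like cells together). A single cell held 9.4% of their 127 Eln UMIs at 4 weeks, and whether this background holds more than free RNA was not tested.

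Within cluster 19 the Eln UMIs were unevenly spread over the cells. The median cell had 14.5 Eln UMIs per 10000 at 2 weeks and 5.98 at 4 weeks, while the highest had 398 and 344. The top 25% of cells, 29 and 22 in number, held 85.4% and 92.5% of the cluster's Eln UMIs. Clustered alone, the 4-week library set 23 of its 7422 cells apart, 21 of them from cluster 19, led by Spp1, Thbs1, Ltbp2, Mgp and Acan, the last the gene of the cartilage proteoglycan aggrecan. These 23 cells stood at 8806 CPM of Eln and held 21.6% of all Eln UMIs of the library. The same cells had 1710 CPM of Fbln5 and 229 CPM of Emilin1, but 37.2 CPM of Mfap4 and 53.7 CPM of Fbln1. Eln is itself among the leading genes of that small cluster, so its level there is a description of the cluster and no independent result.

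In smooth muscle cell-like cells the top 25% of cells held 63.9% and 65.8% of the Eln UMIs, less than in cluster 19. The median cell had 18.7 and 10.2 UMIs per 10000. An Eln UMI was found in 96.0% of these cells at each time, against 96.5% and 84.1% of the cluster 19 cells. The Eln level there was lower at 4 weeks by a log2 ratio of -0.68 (95% interval -0.76 to -0.61). Of the 10 genes, 4 were lower at 4 weeks in these cells with an interval that excludes 0 (Eln, Fbn1, Mfap4 and Loxl1) against 5.52% of 10027 genes tested, and 3 were higher (Fbln1, Mfap5 and Ltbp4) against 8.26%. Past 1.5-fold, 1 was lower (Eln, 3.12% of all genes) and 1 higher (Fbln1, 4.42%). These counts rest on 75 cells at 4 weeks, and the shares of all genes were not matched for UMI count. Fbln1 had the largest ratio, 2.10 (1.66 to 2.53), from 25.1 to 107 CPM, and 1 cell held 24.5% of its 98 UMIs at 4 weeks.

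Most UMIs of the microfibril genes lay in fibroblast-like cells, 93.7% and 95.3% for Fbn1, 91.7% and 94.7% for Mfap5 and 71.8% and 92.1% for Mfap4. Their level there was not always the highest. Fbn1 encodes fibrillin-1, the backbone of the microfibril. It stood at 1222 CPM at 2 weeks and 531 CPM at 4 weeks in fibroblast-like cells, against 194 and 151 CPM in smooth muscle cell-like cells. Mfap5, which encodes the microfibril-associated glycoprotein MAGP-2, stood at 2384 and 2391 CPM in fibroblast-like cells and 606 and 872 CPM in smooth muscle cell-like cells. The unnamed cluster 15, of 45 and 204 shallow cells, had 2078 and 2814 CPM of Mfap5. Mfap4 encodes a fibrinogen-domain protein that binds elastin and microfibrils, and its 397 and 327 CPM in fibroblast-like cells lay below the 538 and 410 CPM in smooth muscle cell-like cells and the 898 and 385 CPM in cluster 19. Endothelial cell-like cells held 0 Mfap4 UMIs at 2 weeks (which allows up to 6.08 CPM) and 1 at 4 weeks.

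The fibulin genes had different sources from one another. Fbln5 is needed for elastic fibre assembly and binds elastin. It followed Eln in its order, with 1107 and 1194 CPM in cluster 19, 596 and 623 CPM in smooth muscle cell-like cells and 209 and 261 CPM in fibroblast-like cells. Fbln2, a fibulin of basement membranes and elastic fibres, reached 948 and 985 CPM in fibroblast-like cells and 608 (541 to 681) and 719 (619 to 831) CPM in endothelial cell-like cells. In smooth muscle cell-like cells Fbln2 stood at 25.1 and 14.3 CPM, where the lymphoid background was 10.8 and 12.3 CPM.

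Fbln1, which encodes a fibulin bound to elastic fibres and other matrix proteins, stood at 597 and 785 CPM in fibroblast-like cells and 746 and 584 CPM in cluster 19. In endothelial cell-like cells it had 3 and 4 UMIs in all. Parathyroid cell-like cells had 87.5 (71.5 to 106) and 82.3 (53.7 to 121) CPM of Fbln1, and 66.7% and 60% of these 54 and 15 cells had an Fbln1 UMI. Epithelial or thyroid cell-like cells stood at 107 (89.3 to 128) CPM at 2 weeks, where 32.9% of these 70 cells had an Fbln1 UMI. The lymphoid background of Fbln1 was 6.72 and 14.1 CPM, and the other 9 genes stood at 25 CPM or lower in parathyroid cell-like cells.

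Emilin1 and Ltbp4 were also found outside the fibroblast-like cells. Emilin1 encodes an elastin microfibril interfacer that lies between elastin and the microfibrils. It stood at 148 and 149 CPM in cluster 19, 112 and 99.8 CPM in smooth muscle cell-like cells and 57.9 and 43.3 CPM in fibroblast-like cells. Macrophage-like cells had 18.1 and 21 CPM of Emilin1 and thymocyte-like cells 18.5 and 16.7 CPM, against 4.11 (2.05 to 7.35) and 2.71 (1.93 to 3.68) CPM in T, B and NK cell-like cells. For Mfap5 the macrophage-like cells (28.1 and 46.5 CPM) and the thymocyte-like cells (25.3 and 42.8 CPM) were close to the lymphoid value (34.7 and 46.6 CPM). The difference seen for Emilin1 was thus not seen for Mfap5. At 2 weeks thymocyte-like cells held 12% and macrophage-like cells 10.2% of all Emilin1 UMIs. Fbln2 also stood above the lymphoid value in thymocyte-like cells, at 26.1 and 31.6 CPM, and in macrophage-like cells it did not, at 8.27 and 12.2 CPM.

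Ltbp4 encodes a latent TGF-beta binding protein that also supports elastin assembly through fibulin-5. Its highest level was in lymphatic endothelial cell-like cells, 782 (676 to 901) CPM at 2 weeks and 970.5 (814 to 1149) CPM at 4 weeks, from 21 and 19 cells. Endothelial cell-like cells followed with 559 (495 to 629) and 801 (695 to 918) CPM. Cluster 19 had 473 and 580 CPM, smooth muscle cell-like cells 378 and 431 CPM and fibroblast-like cells 251 and 411 CPM. The shallow cluster 15 had 513 CPM at 4 weeks. Smooth muscle cell-like and fibroblast-like cells overlapped in their intervals at 4 weeks. At 4 weeks the intervals of both endothelial groups overlapped, and at 2 weeks they did not.

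Loxl1, the gene of a lysyl oxidase that crosslinks elastin and binds fibulin-5, was highest in fibroblast-like cells at 778 and 598 CPM. Cluster 19 had 524 and 419 CPM and smooth muscle cell-like cells 267 and 223 CPM. Endothelial cell-like cells had 2 and 7 Loxl1 UMIs in all. Endothelial cell-like cells thus carried Eln, Fbln2, Fbln5 and Ltbp4 UMIs but almost none of Mfap4, Fbln1 and Loxl1. An Fbn1 UMI was found in 65.9% and 34.6% of them, an Emilin1 UMI in 26.8% and 50%, and an Mfap5 UMI in 19.5% and 46.2%.

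**Figure D2:**
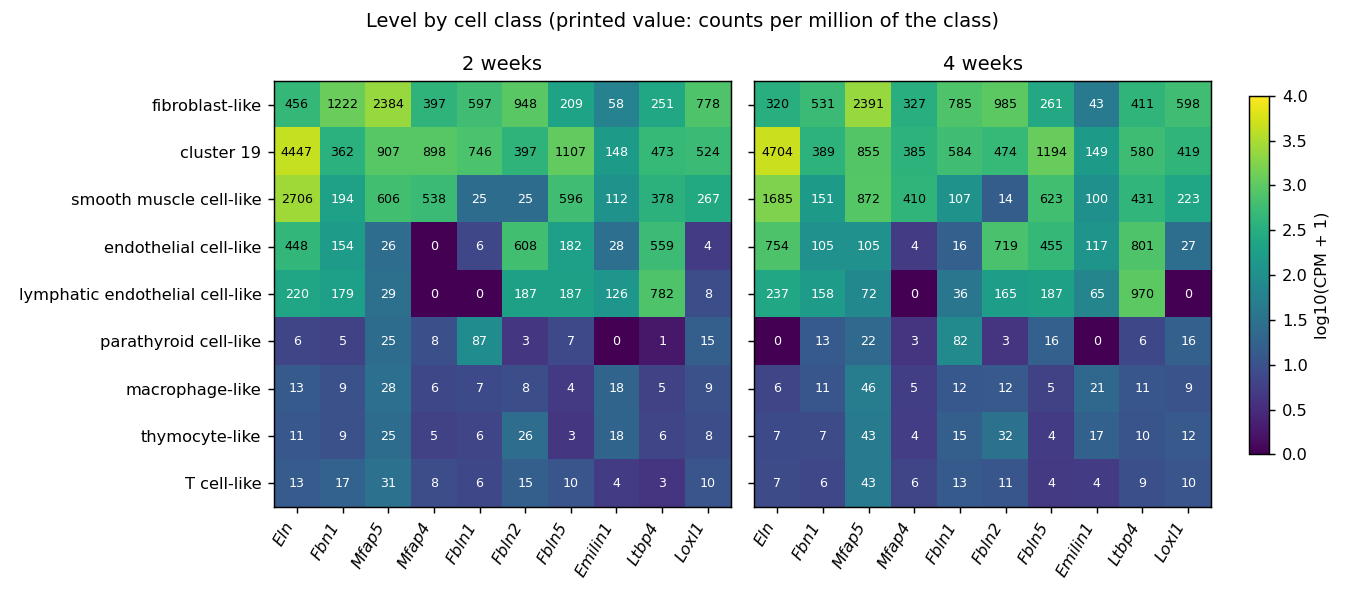
Level of each gene (columns) in 9 groups of cells (rows), at 2 and 4 weeks, 1 library each; colour gives log10(CPM + 1) and each cell of the map prints the CPM. Eln is brightest in cluster 19 (4447 and 4704 CPM), and Ltbp4 is high in both endothelial rows. Fbln1 has 87.5 and 82.3 CPM in the parathyroid row. Epithelial or thyroid cell-like cells, with 107 CPM of Fbln1 at 2 weeks, are not among the rows.

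After thinning each cell to 2700 UMIs, which 998 and 2858 of the fibroblast-like cells reached, the genes differed in how many fibroblast-like cells showed them. An Mfap5 UMI was found in 94% and 96% of them at 2 and 4 weeks, a Loxl1 UMI in 80.5% and 72.6%, an Fbn1 UMI in 75.5% and 53.0%, an Ltbp4 UMI in 44.4% and 59.6%, and an Eln UMI in 34.0% and 27.7%. Without thinning the Eln shares were 79.2% and 58.8%, at median depths of 22514.5 and 12815.5 UMIs. In thinned thymocyte-like cells, as background, Mfap5 was found in 8.4% and 12.9% and Eln in 4.4% and 2.2%. The median thinned fibroblast-like cell showed 6 of the 10 genes at 2 weeks and 5 at 4 weeks.

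Fibroblast-like cells fell into 5 clusters, formed without the elastic fibre genes. Cluster 2 (149 cells at 2 weeks, 978 at 4 weeks) met 5 of 7 markers of Pi16-high fibroblasts, an adventitial type found in many tissues. Cluster 3 (206 and 867 cells) met 4 of 5 markers of the C7 and Inmt subset, and cluster 5 (87 and 629 cells) 5 of 6 of the Thbs4 and Cilp subset, which are also genes of tendon and cartilage. Cluster 9 (445 and 89 cells) met 7 of 7 markers of the Cthrc1-high subset, known as matrix-producing fibroblasts of injured tissue. Cluster 10 (121 and 339 cells) was led by Cxcl13, Smpd3 and Pla1a and met at most 1 marker of any subset. The lists were not exclusive. Cluster 5 also met 3 of 5 C7 and Inmt markers, with C7 and Inmt among them, and 3 of 5 of a Myoc and Apod list. Cluster 3 also met 3 of 5 markers of a Cxcl13 list, with Cxcl13 among them. Each subset name used here is that of the list with the most markers met. Of all fibroblast-like cells, 44.1% were in cluster 9 at 2 weeks and 3.07% at 4 weeks, and 14.8% and 33.7% were in cluster 2.

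Eln and Mfap4 had their highest level among these clusters in the Thbs4 and Cilp cluster. Eln stood there at 1892 CPM at 2 weeks and 1038 CPM at 4 weeks, and in cluster 10, the lowest, at 112 and 63.2 CPM, a 16.9-fold and 16.4-fold range. Mfap4 stood at 1132 and 1147 CPM in the Thbs4 and Cilp cluster and at 69.4 and 19.1 CPM in the Pi16-high cluster, a 16.3-fold and 60.1-fold range. In the Pi16-high cluster 30.9% of the cells had an Mfap4 UMI at 2 weeks and 12% at 4 weeks, against 91.9% and 89.0% in the Thbs4 and Cilp cluster. The lymphoid background of Mfap4 was 8.22 and 5.41 CPM. At 2 weeks more of the library's UMIs of both genes lay in the Cthrc1-high cluster, which had more cells (18.2% of Eln and 34.2% of Mfap4, against 10.3% and 13.5% in the Thbs4 and Cilp cluster). At 4 weeks the Thbs4 and Cilp cluster held 38.8% of Eln and 62.1% of Mfap4. Mfap4 is also among the 10 leading genes of the Thbs4 and Cilp cluster, although it was kept out of the clustering.

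Inside the Thbs4 and Cilp cluster Eln was unevenly spread too. Its median cell had 2.81 and 2.79 Eln UMIs per 10000, its upper quartile was 16.5 and 9.29, and its highest cell reached 159 and 256. The top 25% of its cells held 89.7% and 83.7% of its Eln UMIs. A single cell held 19.2% of the Eln UMIs of this cluster at 2 weeks and 4.0% at 4 weeks.

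Fbn1, Mfap5 and Loxl1 had another order. Fbn1 was highest in the Cthrc1-high cluster, 1520 and 1452 CPM, followed by the Pi16-high cluster at 1469 and 862 CPM, and lowest in the C7 and Inmt cluster at 302 and 179 CPM. At 2 weeks the 2 highest clusters overlapped in their intervals, and at 4 weeks they did not. Fbn1 is also among the 10 leading genes of the Cthrc1-high cluster, although it was kept out of the clustering. Mfap5 was highest in the Pi16-high cluster, 3645 and 3355 CPM, and lowest in the C7 and Inmt cluster, 1559 and 1486 CPM. Loxl1 had its highest level in the Pi16-high cluster as well, 948 and 710.0 CPM, and its range over the clusters was the narrowest of the 10 genes at 1.64-fold and 1.51-fold.

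Among the fibulins, Fbln1 was highest in the C7 and Inmt cluster at 2 weeks (1184 CPM) and in the Thbs4 and Cilp cluster at 4 weeks (1427 CPM), and lowest in the Pi16-high cluster (357 and 274 CPM). Fbln2 was highest in the Thbs4 and Cilp cluster at 1407 and 1403 CPM. Fbln5 was lowest in the Cthrc1-high cluster, at 149 and 82.4 CPM, where the other 4 clusters lay between 246 and 321 CPM at 2 weeks and between 260.1 and 308 CPM at 4 weeks. Ltbp4 was also lowest in the Cthrc1-high cluster, at 166 and 230.3 CPM, and highest in the Thbs4 and Cilp cluster, at 501 and 589 CPM. At 2 weeks its interval in the Thbs4 and Cilp cluster overlapped that in the C7 and Inmt cluster (461 CPM). Emilin1 was lowest in the Pi16-high cluster, at 26.9 and 26.4 CPM, with intervals that overlapped those of cluster 10 (33.1 and 31.4 CPM) at both times.

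**Figure D3:**
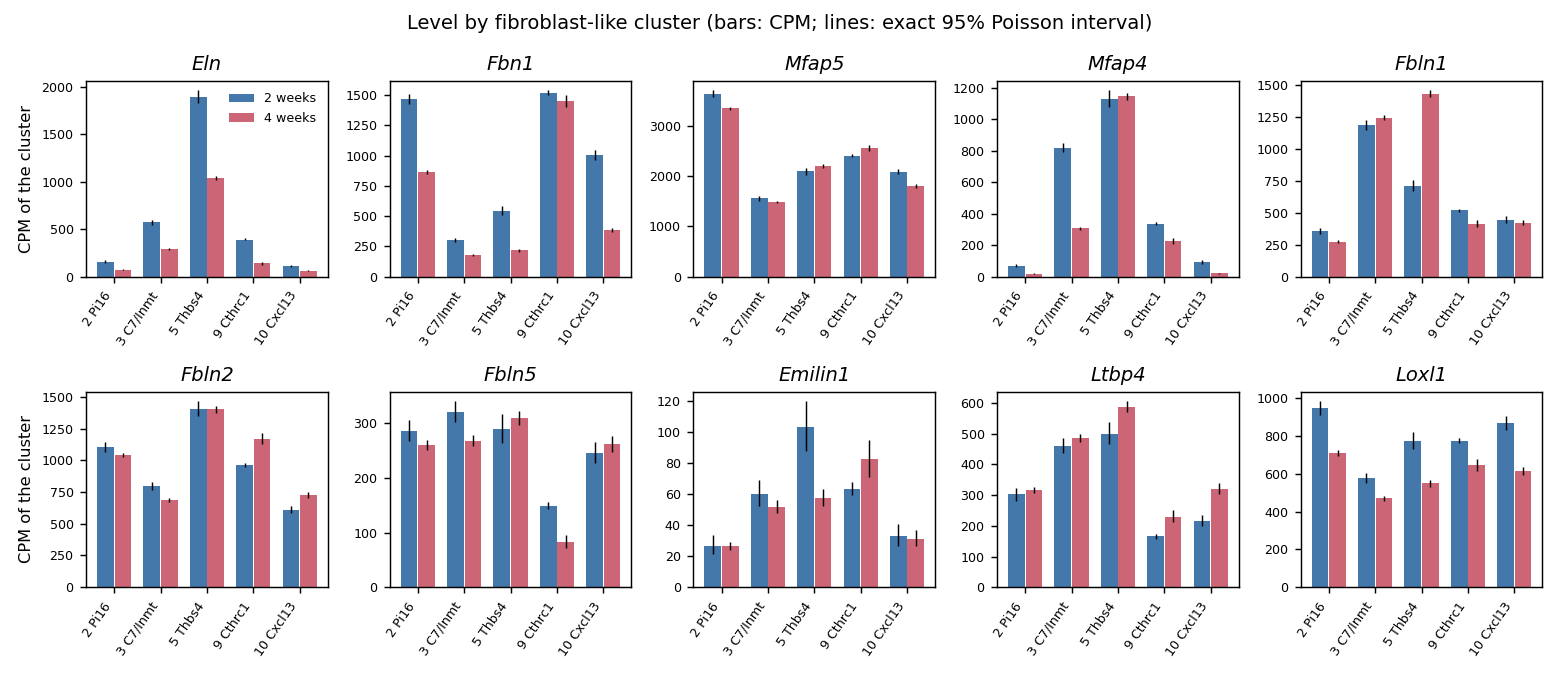
Level of each gene in the 5 fibroblast-like clusters, 1 panel per gene; bars are CPM of the cluster at 2 weeks (blue) and 4 weeks (red), lines the exact 95% Poisson interval, and the vertical axes differ between panels. Eln and Mfap4 peak in cluster 5 (1892 and 1132 CPM at 2 weeks), Fbn1 in clusters 9 and 2, and Fbln5 and Ltbp4 are lowest in cluster 9.

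Over these 5 clusters at both times, 10 points in all, the levels of some genes moved together. As a description, Pearson's r of log2(CPM + 1) was 0.93 for Eln and Mfap4, 0.83 for Mfap4 and Emilin1, 0.83 for Fbn1 and Loxl1 and 0.80 for Fbln1 and Mfap4. It was -0.84 for Fbn1 and Ltbp4 and -0.81 for Fbn1 and Fbln1. The points share 2 libraries and each cluster appears at both times, so they are not independent.

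Among 8723 genes with at least 500 UMIs in fibroblast-like cells, those most like Eln over the same points were Ephb3, Spry1 and Tgfb3 (r between 0.95 and 0.97). The closest to Fbn1 were Fstl1, Slc39a6 and Tubb6, with r between 0.98 and 0.99. Mfap4 was closest to Myl9, Tmem119 and Mpzl1 (0.97 to 0.99), and Fbln1 to Pdgfrb, Il11ra1 and Gstm2 (0.97 to 0.98). For Fbln2 the leading gene was Thbs4, itself a marker of cluster 5, at 0.95. For Ltbp4 it was Hlf at 0.97, for Loxl1 Ubqln4 at 0.95, for Fbln5 Mfap1b at 0.97, for Mfap5 Ncoa6 at 0.98 and for Emilin1 Ift20 at 0.99. Each was picked as the highest of 8723 genes over few points, so the choice alone favours a high r.

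**Figure D4:**
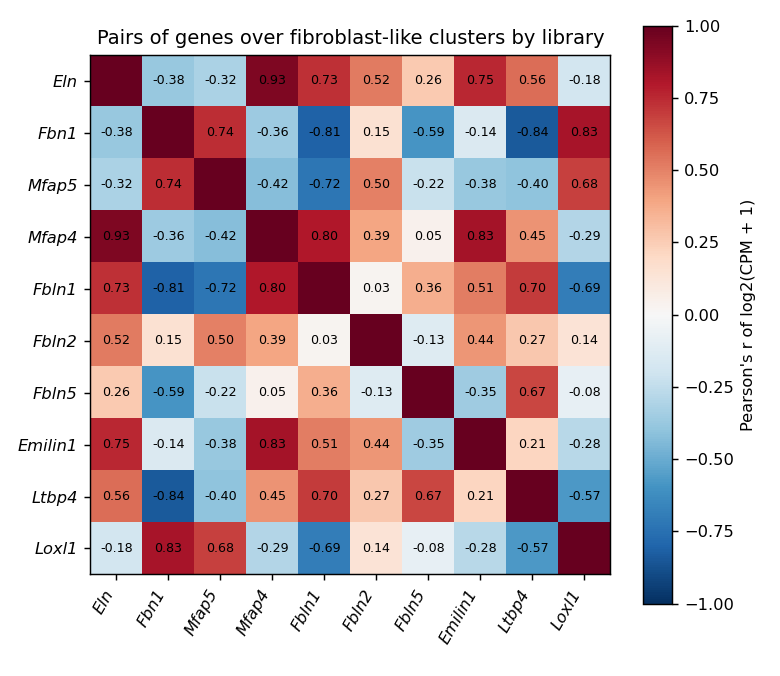
Pearson's r of log2(CPM + 1) for each pair of the 10 genes over 10 points, the 5 fibroblast-like clusters at 2 and 4 weeks; red is positive, blue negative, and r is printed in each field. Eln and Mfap4 have the highest r (0.93) and Fbn1 and Ltbp4 the lowest (-0.84).

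Between the times, fibroblast-like cells had less Fbn1 and more Ltbp4 in the later library. The log2 ratio, with the 4-week CPM divided by the 2-week CPM, was -1.20 (-1.23 to -1.18) for Fbn1 and 0.71 (0.67 to 0.75) for Ltbp4. These were the genes past 1.5-fold with an interval excluding 0: 1 of 10 lower, where 9.06% of 13791 genes were, and 1 of 10 higher, where 4.67% were. At 2-fold, Fbn1 was the 1 gene lower (5.11% of all genes) and 0 were higher (1.91%). At any size, 5 of 10 were lower (24.1% of all genes) and 4 of 10 higher (25.2%). The median ratio of the 10 genes was -0.14, and that of all genes tested was 0.01.

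The elastin gene had a ratio of -0.51 (-0.55 to -0.47), Emilin1 -0.42 (-0.52 to -0.31), Loxl1 -0.38 (-0.41 to -0.35) and Mfap4 -0.28 (-0.32 to -0.24). Fbln1 had a ratio of 0.39 (0.37 to 0.42), Fbln5 0.32 (0.27 to 0.37) and Fbln2 0.06 (0.03 to 0.08). For Mfap5 the interval included 0 (-0.01 to 0.02). The Eln ratio in these cells was -0.73 when cluster 19 was counted as fibroblast-like and -1.22 when each library was clustered alone. In that clustering a 2-week cluster of 336 cells with 35.9% of the library's Eln UMIs was named fibroblast-like, while the 23 cells with 21.6% at 4 weeks stayed unnamed.

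Depth and the level of other cell types' markers differed between the libraries as well. The summed smooth muscle markers in fibroblast-like cells were 235 CPM at 2 weeks and 52.0 CPM at 4 weeks, with all 8 lower at 4 weeks. In thymocyte-like cells they were 77.0 and 25.1 CPM. Among the fibroblast-like clusters the sum was highest in the Cthrc1-high cluster (342 and 158 CPM) and lowest in the Pi16-high cluster (71.5 and 27.8 CPM). How much of it was other cells' RNA and how much the cells' own was not tested. The 8 macrophage markers summed to 81.8 and 17.4 CPM in fibroblast-like cells, also all lower. Their part in the ratios was not tested. The lymphoid level of Eln was 26.0 and 37.2 times below that in fibroblast-like cells, and that of Fbn1 79.8 and 82.6 times.

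Since the mix of clusters differed so much, the ratios were also taken within clusters. Eln was lower at 4 weeks in 5 of 5 clusters, with a mean of -1.06 against the pooled -0.51. The ratios lay between -0.83 in cluster 10 and -1.51 in the Cthrc1-high cluster. In the Cthrc1-high cluster a single cell held 13.4% of the Eln UMIs at 2 weeks and 18.2% of 325 at 4 weeks. In the C7 and Inmt cluster a single cell held 18.6% and 9.4%. How far the ratios depend on these cells was not tested. The median cell's Eln level hardly differed in the Thbs4 and Cilp cluster (2.81 and 2.79, scaled as above). It was lower at 4 weeks in the other clusters. Loxl1 was lower in 5 of 5 clusters as well (mean -0.40). Fbn1 was lower in 5 of 5 but unevenly: -1.39 (-1.48 to -1.30) in cluster 10, -1.33 in the Thbs4 and Cilp cluster, and -0.07 (-0.12 to -0.01) in the Cthrc1-high cluster. Mfap4 was lower in 4 of 5, by -2.22 in cluster 10, -1.86 in the Pi16-high cluster and -1.42 in the C7 and Inmt cluster, and its ratio in the Thbs4 and Cilp cluster, where it was highest, was 0.02 (-0.05 to 0.09).

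Other genes differed between clusters in direction. Fbln1 stood at 709 CPM at 2 weeks and 1427 CPM at 4 weeks in the Thbs4 and Cilp cluster, a ratio of 1.01 (0.92 to 1.10), while it was -0.38 in the Pi16-high cluster and -0.32 in the Cthrc1-high cluster. Fbln5 was higher at 4 weeks in the pooled cells, yet lower in 3 of 5 clusters and higher in none, with a mean of -0.21 and its lowest ratio, -0.85, in the Cthrc1-high cluster. Ltbp4 was higher in 3 of 5 (mean 0.28, highest 0.57 in cluster 10) and lower in none. Mfap5 was within -0.21 and 0.09 in every cluster.

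**Figure D5:**
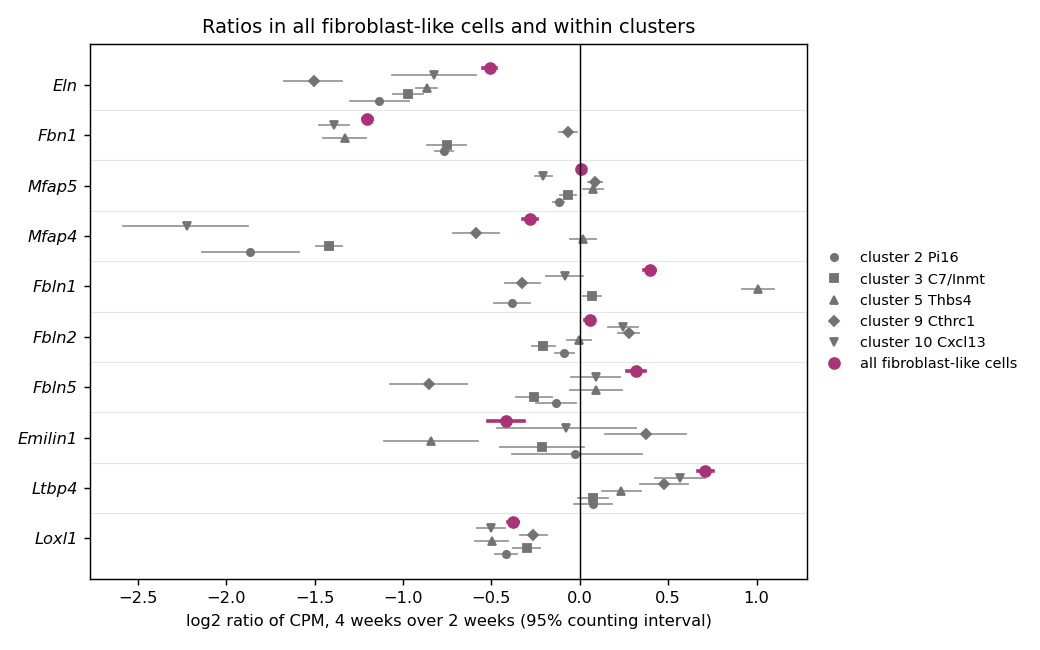
Log2 ratio, 4-week CPM divided by 2-week CPM (horizontal axis, lines are 95% counting intervals) for each gene in all fibroblast-like cells (purple) and in each of the 5 clusters (grey). All Eln and Loxl1 points lie left of 0, and for Eln, Mfap4 and Fbln5 most cluster points lie left of the purple point.

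The pooled ratio was split into a part from the mix of clusters and a part within clusters. The mix part weights the 2-week levels of the clusters by their 4-week shares of UMIs. Both parts add up to the pooled ratio, but their sizes depend on this order. The other order, with 4-week levels at 2-week shares, was not computed. For Ltbp4 the mix gave 0.54 and the levels within clusters 0.17 of 0.71. For Fbln5 they gave 0.43 and -0.12, and for Eln 0.42 and -0.94. For Mfap4 the parts were 0.32 and -0.60, and for Fbn1 -0.41 and -0.79. For Loxl1, with a ratio of -0.38, the mix gave 0.03 and the levels within clusters -0.41.

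Other genes of the elastic fibre were followed in fibroblast-like cells from lists chosen with earlier results of these data known. Of 14 other elastic fibre and microfibril genes tested, 4 were lower at 4 weeks past 1.5-fold and 1 was higher. Fbn2, the gene of the fibrillin of development and repair, stood at 30.3 CPM at 2 weeks and 2.51 CPM at 4 weeks, a ratio of -3.59 (-3.92 to -3.28). Mfap2, which encodes a related microfibril-associated glycoprotein, had a ratio of -0.65 and Efemp2, the fibulin-4 gene that binds lysyl oxidase, -0.60. Thsd4 also counted as lower, from only 1.37 and 0.73 CPM. Fbln7 was higher with 1.03 (0.96 to 1.10), and it is itself a leading gene of the Thbs4 and Cilp cluster. Efemp1, the most abundant of the list, had 0.12.

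Of the 4 lysyl oxidase genes beside Loxl1, 2 were lower past 1.5-fold: Lox, the main arterial crosslinking enzyme, from 138 to 62.0 CPM (-1.16), and Loxl2 from 225 to 107 CPM (-1.07). The ratios of Loxl3 (-0.06) and Loxl4 (-0.16) had intervals that included 0. Of 9 protease genes tested, 4 were lower and none higher past 1.5-fold, among them Mmp14, the membrane-bound activator of Mmp2, from 437 to 262 CPM (-0.74). Mmp9, Ctss and Prtn3 were the others, at 10.2 CPM or lower, and Mmp9 and Ctss were far higher in other classes. Ctsl, the most abundant at 4 weeks, had a ratio of 0.21 and Mmp2, the most abundant at 2 weeks, -0.18.

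Of 6 protease inhibitor genes tested, 3 were lower and 1 higher past 1.5-fold. Timp1, an inhibitor of metalloproteinases, went from 305 to 176 CPM (-0.79) and Serpina3n from 129 to 74.0 CPM (-0.81). Slpi (-3.49) stood at 17.9 and 1.59 CPM, against 8288 CPM in neutrophil-like cells at 2 weeks. Cst3, the cystatin C gene, an inhibitor of cysteine cathepsins, was higher with 1.10 (1.08 to 1.12), from 1185 to 2539 CPM, and Timp2, the most abundant, had 0.15. Of 8 receptor and integrin genes, 1 was lower, Itga5, the fibronectin receptor subunit, with -0.92, while Itgb3 had -0.46, Glb1, which encodes the precursor of the elastin-binding protein, -0.30, and Itgb1, the most abundant, -0.27. The shares of all genes past 1.5-fold, 9.06% lower and 4.67% higher, apply to these counts too.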

How the data were processed

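Single-cell RNA was measured by 10x Genomics libraries, 1 at 2 weeks and 1 at 4 weeks. The authors deposited raw UMI counts for each barcode. Cell Ranger 4.0.0 made them, per the file headers, on build mm10, per the submitters' processing notes. Per the labels' protocols the adventitia was dissected from media and neointima and single live nucleated cells were sorted; which layers were digested is not given in the sources used here. The libraries held 78773018 and 83753250 UMIs in 5864 and 8565 barcodes. Of 27998 gene identifiers, 27645 are in GENCODE M21, whose positions in mm10 were used to find exons.

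Software was scanpy 1.11.5, leidenalg 0.10.2, igraph 0.11.9, scipy 1.17.1, pandas 2.3.3, numpy 2.4.6 and matplotlib 3.10.9 under Python 3.11.15. A cell needed 300 genes, 500 UMIs and no more than 10% of them mitochondrial, and the highest Scrublet scores were removed as doublets at 0.8% per 1000 barcodes (275 and 587 barcodes). Counts per 10000 were logged and scaled. The 1977 variable genes left without any gene of the elastic fibre lists, 30 principal components and 15 neighbours gave Leiden clusters (resolution 1, both libraries together, no batch correction). A cluster was named where at least 3 markers and 50% of a list of 27 stood at 2 times the mean of the other clusters in at least 10% of cells, with a lead of 10 percentage points; shallow clusters with no marker of the name among their leading 10 genes stayed unnamed. This scoring rule was set after the data were seen, and a thymocyte name took precedence over T cell. Names were rebuilt here and may differ from the study's.

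Summed UMIs of each library and group of cells were turned into CPM and given exact Poisson intervals; shares have exact Clopper-Pearson intervals and ratios exact conditional binomial intervals, all at 95% and for counting error only. Cells are not replicates. A gene counted as called at 1.5-fold with an interval excluding 0, if it had 20 or more UMIs in the class; a count of 0 was read as allowing 3 counts. The interval calculation was tested on simulated Poisson counts of pooled cells. That simulation held no variation between cells or libraries and so does not cover it. For shares of cells each cell was thinned to 2700 UMIs. "Most abundant" means most UMIs, uncorrected for capture differences between genes. All 10 genes are named throughout. From the other lists the text names the 4 genes with the largest ratios among those with at least 50 UMIs and the most abundant, plus Efemp2 and Ctsl, chosen after their values were seen; of the 3 genes most like each member by Pearson's r it names all or the leading one. The members and lists were chosen with earlier results of these data known. Alternatives were no doublet removal, each library clustered alone, resolution 2, elastic fibre genes in the clustering, a 5% mitochondrial limit, median scaling, means over cells, within-cluster means, no top cell, other minimum UMIs, 2-fold and no thinning; counting unnamed clusters 15 or 19 as fibroblast-like was added after seeing the data.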

Additional observations from a re-analysis of the deposited data

How the results depend on the processing

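No paired analysis was possible because each time is 1 library. Of 110 alternative values of the 10 ratios in fibroblast-like cells, 57 stayed within the counting interval of the reported value, of which 1 had the other sign (Mfap5 at -0.0064 with median scaling). Outside it lay 49 with the same sign and 4 with the other: Fbln5 at -0.057 with separate clustering of the libraries and -0.21 as the mean of within-cluster ratios, Mfap5 at -0.047 as that mean, and Fbln2 at -0.0080 as the mean over cells. Fbn1 ranged from -1.24 to -0.86, Eln from -1.22 to -0.40, Mfap4 from -1.21 to -0.20 and Ltbp4 from 0.28 to 0.72. The median ratio was -0.20 with separate clustering, -0.11 as the mean over cells and -0.19 as the within-cluster mean. Genes of the set lower past 1.5-fold numbered 2 without doublet removal, with elastic fibre genes in the clustering or with cluster 19 counted as fibroblast-like, and 3 with separate clustering. At 2-fold 0 of the set were higher, and 705 of all genes were lower and 264 higher; with a minimum of 100 UMIs 816 were lower. The fibroblast-like share of the UMIs at 2 and 4 weeks was 84.5% and 91.9% without doublet removal, 89.0% and 89.7% with libraries clustered on their own, 80.2% and 91.9% at resolution 2, 88.3% and 95.8% with elastic fibre genes in the clustering, and 81.0% and 90.5% at the 5% limit. Without thinning the median share of fibroblast-like cells with a UMI over the 10 genes was 92.9% and 88.7%, against 55.6% and 56.3% thinned. The causes were not tested. Endothelial values rest on at most 41 cells, and with 1 library per time no difference between times can be told apart from a difference between these libraries.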
